A study of Mus musculus with 6 samples.

Results

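The retina keeps its own circadian clock, and it also answers light and stress within minutes through immediate early genes. The 35 genes described here are 17 clock genes and 18 immediate early genes, chosen by symbol from the 49997 genes of the authors' deposited table; all 35 symbols were found. Each library was made from polyadenylated RNA of a single male mouse retina, taken after carbon dioxide euthanasia and kept in RNAlater. Of the 6 libraries, 3 are labelled as Samd7 knockout (-10A) and were taken at postnatal day 31, and 3 are labelled as c57Bl6/j wild type and were taken at postnatal day 36. Age and genotype went together, so that they cannot be told apart. The labels do not say whether retinas came from separate mice or litters, so the p-values speak only of the spread among these 6 retinas. The sources used here do not give the time of day, the lighting schedule or the light exposure before dissection, and no sample marks a clock phase or a light condition; whether these differed between the groups was not tested.

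In the core loop of the clock, the activators CLOCK (or NPAS2) and BMAL1, the product of Arntl, bind E-box sequences and switch on the Per and Cry genes, whose proteins then block the activators. A second loop runs through the REV-ERB receptors Nr1d1 and Nr1d2, which repress Arntl through ROR elements. The PAR bZIP factors Dbp, Tef and Hlf and their antagonist Nfil3 share D-box sites in further rhythmic genes, while Bhlhe40, Bhlhe41 and Ciart repress the activators directly. Immediate early genes need no new protein to be transcribed. They encode AP-1 subunits (Fos and Jun families), zinc finger factors (Egr family), orphan nuclear receptors (Nr4a family), feedback proteins such as the phosphatase Dusp1, and neuronal activity genes such as Arc and Npas4. In the retina, light is known to induce several of them, Per1 among the clock genes included, through CREB and MAP kinase signalling.

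Of the 34 members tested, 7 passed the test, and 6 of these 7 were lower. Of the 17 clock genes, all tested, 4 were lower in the retinas labelled Samd7 KO (Ciart, Bhlhe41, Nfil3 and Per1), 0 were higher and 13 did not pass the test; 0 were higher also at an unadjusted p under 0.05, by edgeR and by DESeq2. Of the 17 immediate early genes tested, Jun was higher, Atf3 and Dusp1 were lower and 14 did not pass; Egr2 was too low to be tested. The test was limma on log2(normalized count + 1), where a normalized count is a gene's read count divided by the library's size factor, and a call is a Benjamini-Hochberg adjusted p under 0.05. Among all 20277 genes tested, 12% were called, 6.79% higher and 5.21% lower. The share called was 23.5% of the clock genes and 17.6% of the tested immediate early genes, with so few members that 1 gene more or less moves these shares by several points. The members were also chosen with earlier results of these data known. The median log2 fold change was -0.04 for the clock genes and -0.03 for the immediate early genes, against 0.00 for all tested genes. The authors' deposited table, from DESeq2 on the same libraries, called 4 clock genes lower and 0 higher, and 1 immediate early gene higher and 3 lower, Fos being the addition, where 14.3% of its genes with an adjusted p were called.

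The depth behind these values was 44.2 to 53.1 M reads a library under the KO label and 47.7 to 62.8 M in wild type. Samd7 itself was not lower under its label, at 57837, 45755 and 44932 normalized counts in the libraries labelled KO and 6349, 8141 and 8122 in wild type, so directions are given by label. Rod markers were present and lower, 5 of 6 tested, with a summed normalized count of 2277630 to 2470430 against 3902200 to 4280420. The 6 genes used as reactive glia markers were Gfap, Serpina3n, C4b, Edn2, Fgf2 and Stat3. All 6 were higher, with a sum of 21408 to 25518 against 7005 to 7898, though which cells these transcripts came from was not tested. Also higher were all 6 microglia markers (4209 to 4716 against 2600 to 2946) and all 5 red blood cell markers (5661 to 8293 against 1467 to 2232). Pigment epithelium markers were lower in 4 of 6 (25760 to 30030 against 28816 to 32348), and lens markers summed to 139 to 6389 in wild type against at most 152 in the libraries labelled KO. Cone markers, 2 of 6 higher, summed to 508078 to 524278 against 107621 to 109724. Their median log2 fold change was 0.11, so the sum does not describe all 6 markers. None of these marker lists had a member at 0 in all libraries. In bulk tissue, fewer cells of a type and less RNA per cell cannot be told apart, and the part of these cell types in the values below was not tested. The other ways to run the test called 12.3% (edgeR), 14.8% (DESeq2), 12.1% (pseudocount 10), 6.72% (no filter on low values), 13.9% (scaling to total reads) and 8.01% (replicate number as a block) of tested genes. Leaving out KO 1, 2 or 3 gave 16%, 10.2% and 7.38%, and leaving out wild type 1, 2 or 3 gave 10.7%, 7.25% and 6.48%.

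Promoters were searched for the letters of sites used by the clock and by light-driven signalling. RefSeq promoter windows of 300 bases, from 250 before to 50 after a start site on the build GRCm38.p6, were found for 29 of the 35 members. Each was searched on both strands for the E-box CACGTG, the D-box TTANGTAA, a cyclic-AMP response element (CRE) with 1 free base, TGACNTCA, the AP-1 site TGANTCA, the CArG box of serum response factor and the ROR element; none of these patterns holds another of them. The windows of the called members with a match are printed here 5′ to 3′, with every match in capitals. The first 3 are clock genes that fell, followed by Dusp1 and Jun.
Ciart promoter, chr3:95882179-95882478, minus strand: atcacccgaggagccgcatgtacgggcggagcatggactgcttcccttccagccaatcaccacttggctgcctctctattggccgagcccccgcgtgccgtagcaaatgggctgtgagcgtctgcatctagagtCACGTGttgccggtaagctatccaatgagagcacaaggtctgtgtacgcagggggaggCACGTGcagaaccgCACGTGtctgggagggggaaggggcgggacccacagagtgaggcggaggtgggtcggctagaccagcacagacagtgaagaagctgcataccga
Bhlhe41 promoter, chr6:145865371-145865670, minus strand: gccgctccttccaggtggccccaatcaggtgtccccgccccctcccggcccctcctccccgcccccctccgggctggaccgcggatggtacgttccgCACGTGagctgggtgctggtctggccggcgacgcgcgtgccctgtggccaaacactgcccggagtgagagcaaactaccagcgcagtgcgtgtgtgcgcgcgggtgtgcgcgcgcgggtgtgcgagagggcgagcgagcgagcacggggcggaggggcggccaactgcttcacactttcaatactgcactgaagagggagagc
Per1 promoter, chr11:69098699-69098998, plus strand: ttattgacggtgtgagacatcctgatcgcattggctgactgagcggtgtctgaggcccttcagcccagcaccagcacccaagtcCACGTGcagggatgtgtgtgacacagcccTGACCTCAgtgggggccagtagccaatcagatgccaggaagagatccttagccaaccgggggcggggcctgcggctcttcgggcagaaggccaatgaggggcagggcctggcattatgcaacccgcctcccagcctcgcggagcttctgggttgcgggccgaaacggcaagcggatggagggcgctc
Dusp1 promoter, chr17:26508423-26508722, minus strand: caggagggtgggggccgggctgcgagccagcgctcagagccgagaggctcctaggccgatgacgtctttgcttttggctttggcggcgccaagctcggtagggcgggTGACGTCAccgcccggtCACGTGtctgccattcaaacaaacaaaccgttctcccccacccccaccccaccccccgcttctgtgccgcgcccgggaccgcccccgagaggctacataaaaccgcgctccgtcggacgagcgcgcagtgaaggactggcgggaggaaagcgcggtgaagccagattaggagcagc
Jun promoter, chr4:95052173-95052472, minus strand: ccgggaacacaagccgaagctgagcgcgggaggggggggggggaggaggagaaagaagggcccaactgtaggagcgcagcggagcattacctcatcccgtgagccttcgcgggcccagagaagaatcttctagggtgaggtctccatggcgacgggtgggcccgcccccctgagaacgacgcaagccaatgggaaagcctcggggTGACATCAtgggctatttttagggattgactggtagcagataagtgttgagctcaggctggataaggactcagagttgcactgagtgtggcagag

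Ciart carried 3 E-boxes, whose first bases lie at -116, -58 and -44 from the start site. Bhlhe41 carried 1 at -153, and the printed Per1 window had an E-box at -166 and the CRE-like TGACCTCA at -137; a second Per1 start site had no match. Dusp1 had both a full CRE, TGACGTCA at -143, and an E-box at -126, while Jun had TGACATCA at -45. The windows of Nfil3 and Atf3, which also fell, held none of these letters. Among the 15 clock genes with a window, 5 had an E-box: the 3 named, and Cry1 and Tef, which were not called. Of the 14 immediate early genes with a window, Dusp1 and Egr2 had one. The E-box stood in 7.15% of all 32851 windows of the table. A member was counted once if any of its windows matched, so the counts of members and the shares of windows are unlike measures. The CRE-like site was found in Hlf, Per1, Btg2, Dusp1 and Jun, and in 8.83% of all windows; the ROR element in Arntl alone among the members, and in 0.384% of all windows; the D-box in Per3 (2.32%); and the CArG box in Egr2 (1.63%). AP-1 sites were in no member's window and in 7.81% of all. A match describes letters, not binding, and these windows leave out distal sites. Sites that depart from the searched letters were not counted, so a window without a match may still hold one.

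Among the repressors that act beside the Per and Cry proteins, Ciart and Bhlhe41 fell most clearly. Ciart, also known as Chrono, which binds BMAL1 and blocks it (chromosome 3, 95878500 to 95882257, GRCm38), had normalized counts of 1733, 1569 and 1794 in Samd7 KO 1, 2 and 3 and of 2503, 2443 and 2349 in wild type 1, 2 and 3. The groups did not overlap, and the gap between them was larger than the spread within either. The mean was 1.43-fold lower, at 1699 ± 116 against 2431 ± 77.7 (SD, n = 3 each), a log2 difference of -0.52 (SE 0.08, adjusted p = 0.00167 by limma). Bhlhe41, or DEC2, a basic helix-loop-helix repressor that competes for E-boxes (chromosome 6, 145858243 to 145865420), stood at 2439, 2019 and 2210 against 3033, 3600 and 3229. It was 1.48-fold lower without overlap (log2 fold change -0.56, SE 0.10, adjusted p = 0.00214 by limma). An antisense model, Gm43909, shares 19.0% of the Bhlhe41 exon bases, and the sources used here do not state whether counting used strand, so that reads from the 2 could not be separated. Both calls held in all 12 alternatives. The near relative Bhlhe40, or DEC1, did not pass: its counts of 3228, 3335 and 3347 lay among the wild-type counts of 3370, 3149 and 3466 (log2 fold change -0.01, 95% interval -0.17 to 0.15; the sign turned, to 0.05 with scaling to total reads).

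Nfil3, or E4BP4, the repressor at D-box sites (chromosome 13, 52967209 to 52982878), fell as well. Its counts were 1123, 1189 and 1118 in the libraries labelled KO and 1672, 1393 and 1488 in wild type, 1.33-fold lower with no overlap (log2 fold change -0.40, SE 0.10, adjusted p = 0.0169 by limma). The activators at the same sites did not pass the test. Dbp counts were 9440, 8209 and 9776 against 9426, 9628 and 9437, with KO 2 alone low and a log2 fold change of -0.06 (95% interval -0.23 to 0.11). Tef had a log2 difference of 0.17 (95% interval -0.04 to 0.39, adjusted p = 0.298 by limma) and Hlf of 0.05 (95% interval -0.11 to 0.20, adjusted p = 0.734 by limma). The Nfil3 call was lost without KO 3 (adjusted p = 0.0722 by limma), wild type 1 (0.0608) or wild type 3 (0.0713), and with the replicate number as a block (0.0557), over a range of 0.00160 to 0.0722 in all alternatives. Sphk2 shares 18.0% of the Dbp exon bases on the opposite strand, with a mean count of 1473 of its own.

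Of the core-loop repressors, Per1 alone was called. Per1, the period gene most directly induced by light (chromosome 11, 69095108 to 69109965), had 3768, 3469 and 3133 counts in Samd7 KO 1 to 3 and 4186, 4309 and 4286 in wild type 1 to 3. Every KO library lay below every wild-type library, and the wild-type values were close together, the highest 1.03 times the lowest. The mean was 1.23-fold lower (log2 fold change -0.31, SE 0.08, adjusted p = 0.0321 by limma). This call was lost with scaling to total reads (adjusted p = 0.0793 by limma), without KO 3 (0.152), wild type 1 (0.0557), wild type 2 (0.114) or wild type 3 (0.135), and with the replicate block (0.0865); the direction was the same in all 12 alternatives.

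The other period and cryptochrome genes did not pass. Per2, which light also induces, had 756, 754 and 810 counts against 781, 738 and 714, groups that overlap in part (log2 fold change 0.05, 95% interval -0.16 to 0.27). Per3 had 1970, 1534 and 1805 against 2080, 2063 and 1964, with KO 1 inside the wild-type range and a log2 fold change of -0.21 (95% interval -0.43 to 0.01, adjusted p = 0.208 by limma). Cry1, the cryptochrome that sets the late repressive phase, had 3345, 3685 and 3490 against 4129, 3748 and 3773. Its groups did not overlap, but the difference was small (log2 fold change -0.15, 95% interval -0.32 to 0.02, adjusted p = 0.255 by limma). Cry2, its paralog, differed by 0.07 in log2 (95% interval -0.14 to 0.28, adjusted p = 0.705 by limma), and the sign turned without KO 2 or wild type 2. In all, 5 of the 17 clock genes (the called 4 and Cry1) had KO libraries entirely below wild type and 0 entirely above, where 15.2% of all tested genes lay entirely below and 15.9% entirely above.

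The activators did not pass the test. Arntl (chromosome 7, 113178471 to 113314126) had 3863, 4074 and 4188 counts in the libraries labelled KO and 3913, 3418 and 3644 in wild type; KO 1 lay under wild type 1, and the log2 fold change was 0.15 (95% interval -0.03 to 0.32, adjusted p = 0.267 by limma). Clock had 1876, 2313 and 1894 against 2148, 2043 and 2055 (log2 fold change -0.04, 95% interval -0.26 to 0.17, turning to 0.01 with scaling to total reads), and its substitute Npas2 115, 146 and 132 against 133, 97.4 and 113 (log2 fold change 0.20, 95% interval -0.19 to 0.59). None of these 3 activators was called in any of the 12 alternatives. Among the REV-ERB receptors, Nr1d1 had 12150, 11867 and 13586 counts against 15053, 13360 and 13808, with KO 3 inside the wild-type range and a log2 fold change of -0.17 (95% interval -0.33 to -0.00454, adjusted p = 0.177 by limma). Nr1d2 did not pass either, at 2914, 4412 and 3634 against 3044, 2990 and 3026 (log2 fold change 0.25, adjusted p = 0.214 by limma). Without KO 1, which lay below all wild-type libraries, the log2 fold change was 0.41 (adjusted p = 0.0126 by limma). The 3′ exons of Nr1d1 overlap Thra on the opposite strand (8.55% of its exon bases, with a mean Thra count of 11397).

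**Figure D1:**
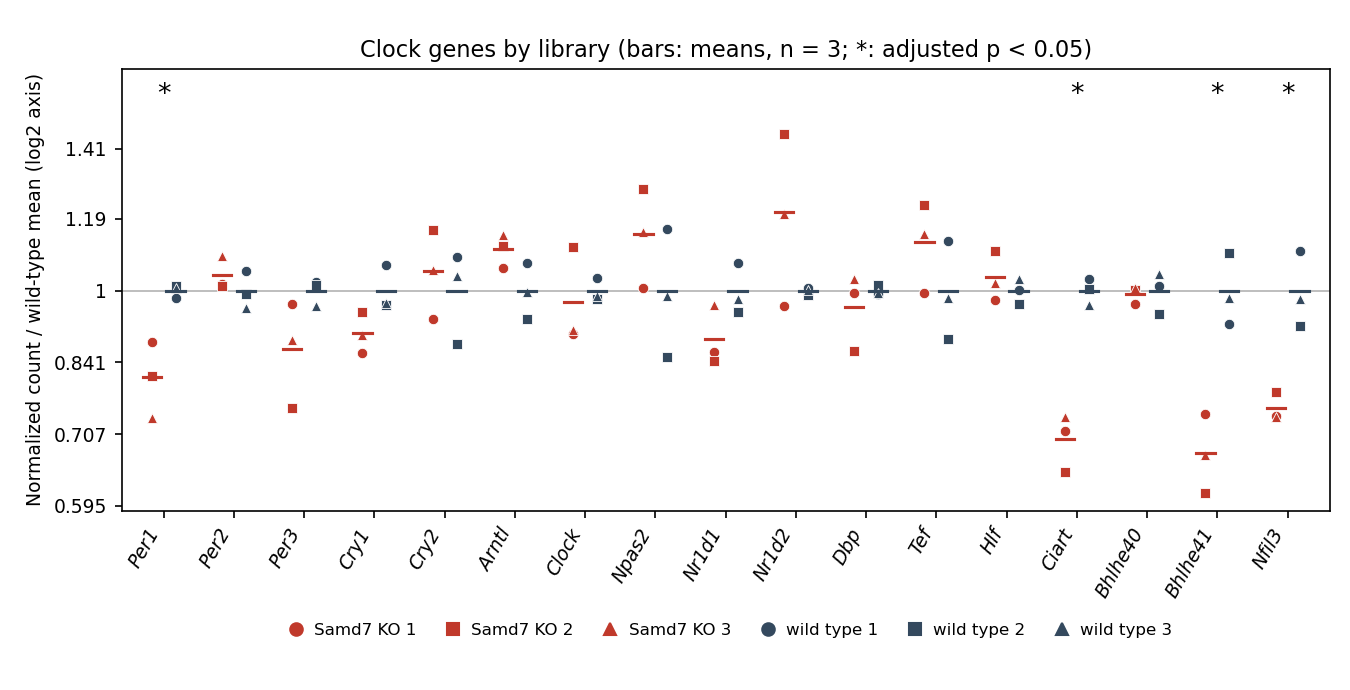
Normalized count of each of the 17 clock genes in each library, divided by the mean of the 3 wild-type libraries (log2 axis); red symbols are the libraries labelled Samd7 KO, dark symbols wild type, bars are group means and asterisks mark an adjusted p under 0.05. The 4 called genes, Per1, Ciart, Bhlhe41 and Nfil3, have all 3 KO values below the wild-type values, while Arntl, Dbp and Per2 overlap.

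A ratio of 2 genes within a library does not depend on how libraries are scaled to each other. Arntl was set over Dbp, Per2, Nr1d1, Ciart and Per1, and no sample here ties such a ratio to a clock phase. Such ratios were formed after the values of the genes had been seen, so they are given as a description. Arntl over Dbp was 0.409, 0.496 and 0.428 in the libraries labelled KO and 0.415, 0.355 and 0.386 in wild type, and these overlap at wild type 1 and KO 1. Arntl over Per2 was 5.11, 5.40 and 5.17 against 5.01, 4.63 and 5.10, groups that nearly touch. Arntl over Nr1d1 was further apart, at 0.318, 0.343 and 0.308 against 0.260, 0.256 and 0.264. For the called genes, Arntl over Ciart was 2.23, 2.60 and 2.33 against 1.56, 1.40 and 1.55, and Arntl over Per1 was 1.03, 1.17 and 1.34 against 0.935, 0.793 and 0.850. On the log2 scale the difference in these ratios, KO minus wild type, ran from 0.09 for Per2 and 0.20 for Dbp, through 0.31 for Nr1d1 and 0.45 for Per1, to 0.66 for Ciart, differences of unequal size. Nfil3 over Dbp, the balance of repressor and activator at D-box sites, was 0.119, 0.145 and 0.114 against 0.177, 0.145 and 0.158, with KO 2 level with wild type 2.

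**Figure D2:**
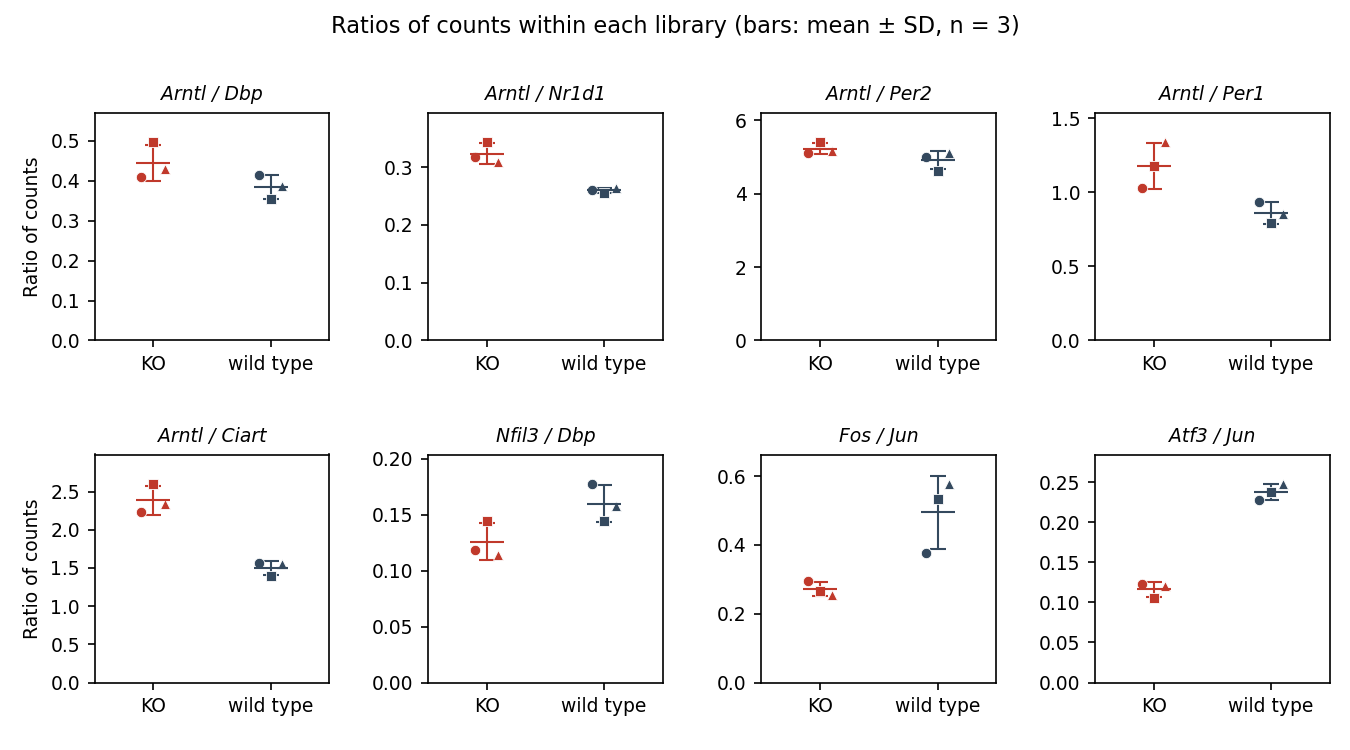
Ratio of the counts of 2 genes within each library (linear axes from 0; points are libraries, bars the mean ± SD, n = 3 each). Arntl over Dbp overlaps between groups, Arntl over Ciart and over Per1 is higher in all libraries labelled KO, and Atf3 over Jun is lower in all of them.

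Levels across the clock genes were ordered per length, as RPKM, reads scaled to the length of the merged GENCODE exons and to the library's total. In wild type, Nr1d1 was highest at 87.0 ± 3.60 RPKM (SD, n = 3), followed by Dbp at 60.4 ± 1.84, Tef at 29.8 ± 2.98 and Cry2 at 24.6 ± 2.23. The spreads of Cry1 (22.1 ± 0.760), Ciart (20.5 ± 0.513) and Hlf (19.0 ± 0.586) lay close to one another, and those of Per1 (14.4 ± 0.515), Nfil3 (14.2 ± 1.03) and Bhlhe40 (13.5 ± 0.594) were not separated. Arntl (9.25 ± 0.442) and Bhlhe41 (9.33 ± 0.991) were not separated either, and Per3, Clock, Per2 and Npas2 were lowest, at 4.03, 2.89, 2.42 and 0.454 RPKM. Nr1d1 and Dbp headed the order in the libraries labelled KO too, at 80.7 ± 5.18 and 60.5 ± 5.33 RPKM. Ciart in those libraries, at 14.9 ± 0.981 RPKM, came down to the level that Per1 and Nfil3 had in wild type.

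Beyond the 17, a list of 27 other clock-pathway genes (ROR receptors, casein kinases, F-box proteins, cofactors and clock outputs) had 1 member lower and 0 higher by limma, with 5 higher and 1 lower at an unadjusted p under 0.05 and the same 1 and 0 by edgeR and by DESeq2. The one that fell was Usp2, a deubiquitinase under direct clock control, at 21951, 21518 and 17274 counts against 25960, 26344 and 24150, 1.26-fold lower with no overlap (log2 fold change -0.34, adjusted p = 0.0273 by limma). Its call was lost without KO 3, wild type 1, wild type 2 or wild type 3 (adjusted p = 0.0976, 0.0602, 0.108 and 0.0618 by limma) and with scaling to total reads (0.0589). The share called was 3.70%, against 12% of all tested genes, and the list's median log2 fold change was 0.06. Of 16 genes of retinal rhythm and dopamine signalling, 12 were tested, 4 fell and 0 rose, with 0 higher also at an unadjusted p under 0.05 and by edgeR and DESeq2. The share called was 33.3% of the tested 12, against 12% of all tested genes called and 5.21% called lower. This list and the clock-pathway list were drawn up with earlier results of these data known, so their shares are only a description. Drd4, the dopamine receptor of photoreceptors and a strongly rhythmic retinal gene, had 29251, 25613 and 26515 counts against 35007, 37011 and 35269, and was 1.32-fold lower with no overlap (log2 fold change -0.40, adjusted p = 0.00167 by limma). Th, which makes dopamine in amacrine cells, was 1.48-fold lower (462, 357 and 424 against 609, 628 and 602), and the dopamine receptor Drd2 was 1.23-fold lower, a call lost in 6 of 12 alternatives, with KO 3 or any wild-type library left out among them. Rgr, an opsin found in pigment epithelial cells and in Müller glia, was the fourth, 4.23-fold lower. Of the 6 pigment epithelium markers, 4 were lower too, with a list median log2 fold change of -1.55, though their summed counts overlapped between groups. Rlbp1, among these 6, also served as a Müller glia marker, so the sum does not describe pigment epithelium alone. The part of pigment epithelium in the Rgr values was not tested. Adcy1, the rhythmic adenylyl cyclase of photoreceptors, had a log2 fold change of 0.04 (adjusted p = 0.846 by limma), and Opn4, melanopsin of light-sensing ganglion cells, of -0.07 (adjusted p = 0.759 by limma); these 2 were picked after their values were seen.

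Among immediate early genes, the AP-1 subunit Jun rose and no other Fos or Jun family member passed. Jun (chromosome 4, 95049036 to 95052222) had 5541, 5098 and 5514 counts in Samd7 KO 1 to 3 and 3972, 3921 and 3859 in wild type 1 to 3. The groups were far apart for their spread, with a mean 1.37-fold higher (5384 ± 248 against 3917 ± 56.3, SD, n = 3 each). The log2 fold change was 0.46 (SE 0.07, adjusted p = 0.00117 by limma). The rise was called in all 12 alternatives. All 6 reactive glia markers, given above, were higher in the same libraries, and their part in the rise of Jun was not tested. The antisense gene Junos shares 7.28% of the Jun exon bases but had a mean count of 105. Jund, the most abundant per length of these genes, had overlapping groups at 16808, 15390 and 16535 against 16059, 16091 and 15295 (log2 fold change 0.04, 95% interval -0.10 to 0.18), although the antisense model Gm11175 shares 52.6% of its exon bases. Junb had 2848, 2081 and 2027 against 1836, 2524 and 2225, with KO 1 highest of all 6 and wild type 1 lowest (log2 fold change 0.07, 95% interval -0.24 to 0.38; the sign turned without either of these libraries).

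Fos, the best known marker of recent stimulation (chromosome 12, 85473890 to 85477274), had 1627, 1361 and 1408 counts in the libraries labelled KO and 1490, 2093 and 2223 in wild type. Wild type 1 fell inside the KO range, so the groups overlapped, and the mean was 1.32-fold lower without passing the test (log2 fold change -0.38, SE 0.14, adjusted p = 0.101 by limma). The call turned on single libraries: without wild type 1 the log2 fold change was -0.56 (adjusted p = 0.00614 by limma), without KO 1 it was -0.46 (0.0451), and DESeq2 on the recovered reads gave -0.40 (adjusted p = 0.0343). Fosb, the slower and more lasting relative, was at 81.3, 43.5 and 61.6 against 39.4, 35.7 and 36.7. These groups did not overlap, yet KO 2 was close to wild type and the difference did not pass (log2 fold change 0.68, SE 0.26, adjusted p = 0.117 by limma); without KO 2 it did (log2 fold change 0.91, adjusted p = 0.0450 by limma). Fosl2 overlapped between groups (log2 fold change 0.34, adjusted p = 0.346 by limma). Within each library the ratio of Fos to Jun was 0.294, 0.267 and 0.255 against 0.375, 0.534 and 0.576, lower in every library labelled KO.

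Atf3, a stress-induced partner and competitor of AP-1 (chromosome 1, 191170296 to 191183333), fell. It had 683, 538 and 664 counts in the libraries labelled KO and 907, 933 and 956 in wild type, 1.48-fold lower with no overlap (log2 fold change -0.58, SE 0.11, adjusted p = 0.00566 by limma), and it was called in all 12 alternatives. Jun and Atf3, both induced by injury in neurons, moved in opposite directions in the same libraries, and the ratio of Atf3 to Jun was 0.123, 0.106 and 0.1204 against 0.228, 0.238 and 0.248. Dusp1, the phosphatase that switches off MAP kinases (chromosome 17, 26505591 to 26508472), had 2526, 2184 and 2179 against 2578, 3062 and 2973. All KO libraries were lower, but KO 1 came close to wild type 1, and the call sat at the threshold (1.25-fold lower, log2 fold change -0.32, SE 0.10, adjusted p = 0.0479 by limma). It was lost in 7 of 12 alternatives: when KO 2, KO 3, wild type 2 or wild type 3 was left out (adjusted p = 0.0981, 0.171, 0.190 and 0.196 by limma), with scaling to total reads (0.110), with the replicate block (0.125) and without a filter on low values (0.0524).

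None of the 3 orphan receptors of the Nr4a family passed the test. Nr4a1 (Nur77) had 2528, 2118 and 2395 counts against 2588, 2997 and 2761, all lower in the libraries labelled KO but not called (log2 fold change -0.25, 95% interval -0.45 to -0.04, adjusted p = 0.112 by limma). Nr4a3 was low throughout, at 18.1, 17.6 and 19.2 against 46.2, 22.7 and 53.7, and did not pass either (log2 fold change -1.03, SE 0.34, adjusted p = 0.0728 by limma); edgeR (adjusted p = 0.0468) and DESeq2 (adjusted p = 0.0465) called it lower, as did limma without wild type 2 (0.0167). Nr4a2, or Nurr1, a factor of dopaminergic neurons, had 437, 454 and 482 against 431, 436 and 312, higher in all KO libraries by margins that are small except for wild type 3 (log2 fold change 0.23, adjusted p = 0.327 by limma). Of the tested 17, 4 had KO libraries entirely below wild type (Atf3, Dusp1, Nr4a1 and Nr4a3) and 3 entirely above (Jun, Fosb and Nr4a2), against 15.2% and 15.9% of all tested genes.

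Egr1, a zinc finger factor that light and synaptic activity induce in the retina, differed more within the groups than between them. It had 1564, 2657 and 1333 counts in Samd7 KO 1 to 3 and 902, 1744 and 3423 in wild type 1 to 3. The lowest and the highest of the 6 were both wild type, 3.80-fold apart, and the log2 fold change of 0.01 had a 95% interval from -0.81 to 0.84, which spans changes of either sign; edgeR and DESeq2 put it at -0.13. Its standard deviation within groups, 0.77 on the log2 scale, was larger than that of 97.9% of tested genes. Egr3 varied as much at a low level, at 10.2, 16.6 and 38.5 against 10.3, 9.74 and 27.3. Egr2 had 7, 16 and 12 reads against 5, 4 and 6, below the level set for a test. Ier2 (3102, 2577 and 2065 against 2268, 3232 and 3298) also spread within both groups, and Btg2, an antiproliferative factor, overlapped in part (log2 fold change -0.09, 95% interval -0.30 to 0.12).

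Arc and Npas4 did not pass the test. Arc, which acts at synapses and follows firing, had 157, 149 and 107 counts against 116, 159 and 144 (log2 fold change -0.03, 95% interval -0.45 to 0.40, turning to 0.03 with scaling to total reads). Npas4, a transcription factor induced by depolarisation, had 107, 94.4 and 124 against 121, 122 and 118 (log2 fold change -0.15, 95% interval -0.52 to 0.21). Neither was called in any of the 12 alternatives.

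**Figure D3:**
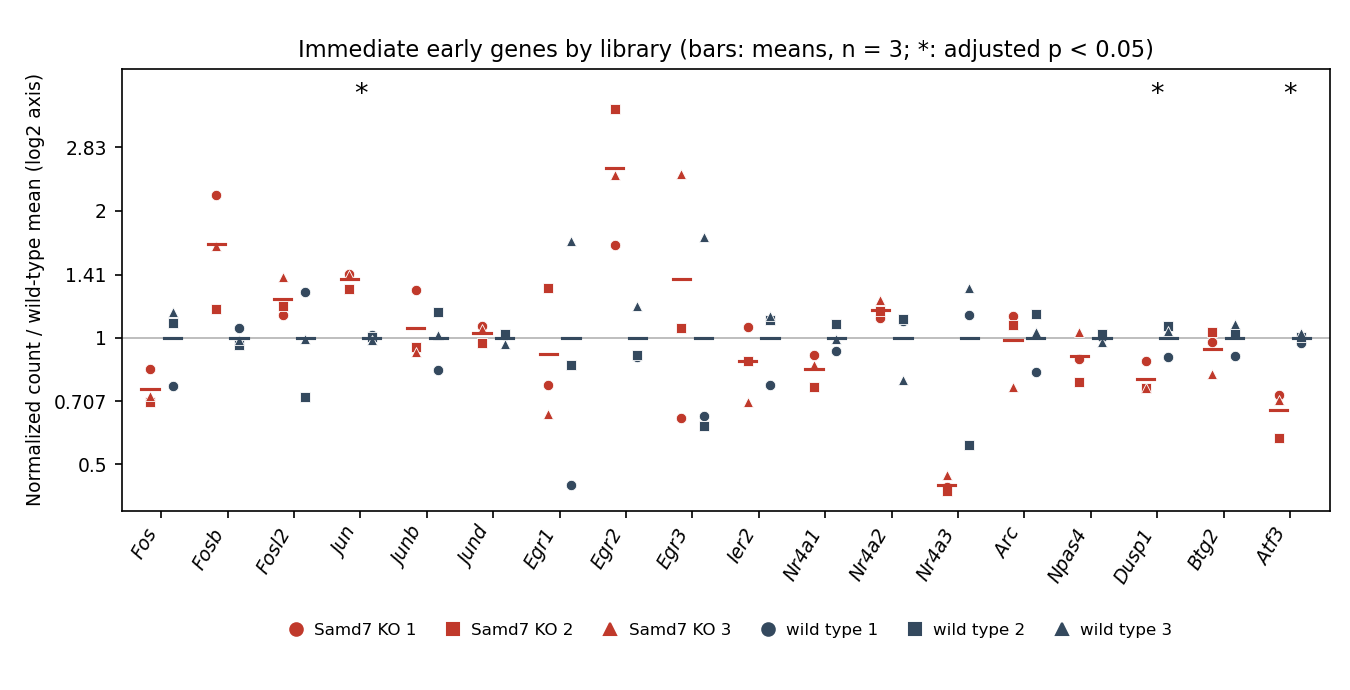
Normalized count of each of the 18 immediate early genes in each library, divided by the mean of the 3 wild-type libraries (log2 axis); symbols as for the clock genes, bars are group means and asterisks mark an adjusted p under 0.05. Jun is higher and Atf3 and Dusp1 lower in all libraries labelled KO, while Egr1 spans 902 to 3423 counts within wild type; Egr2 was not tested.

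How far retinas of 1 group stood apart is described by the spread within groups. The median standard deviation within groups, on the log2 scale, was 0.10 for the 17 clock genes, from 0.05 (Bhlhe40) to 0.21 (Nr1d2), and 0.24 for the 17 tested immediate early genes, from 0.05 (Jun) to 0.86 (Egr3), against 0.17 for all tested genes, among which low genes spread more. Among genes with a mean normalized count of at least 1000, the median was 0.10 for 15 clock genes, 0.15 for 9 immediate early genes and 0.10 for all. The called immediate early genes were not the most variable ones. The test sets a difference against this same spread, so it favours genes of small spread. Jun had a smaller spread than all but 4.39% of tested genes, and Atf3 and Dusp1 exceeded 39.3% and 36.1% of them, while Fos (0.24), Junb (0.25) and Ier2 (0.30) exceeded 68.0%, 70.1% and 76.4%.

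**Figure D4:**
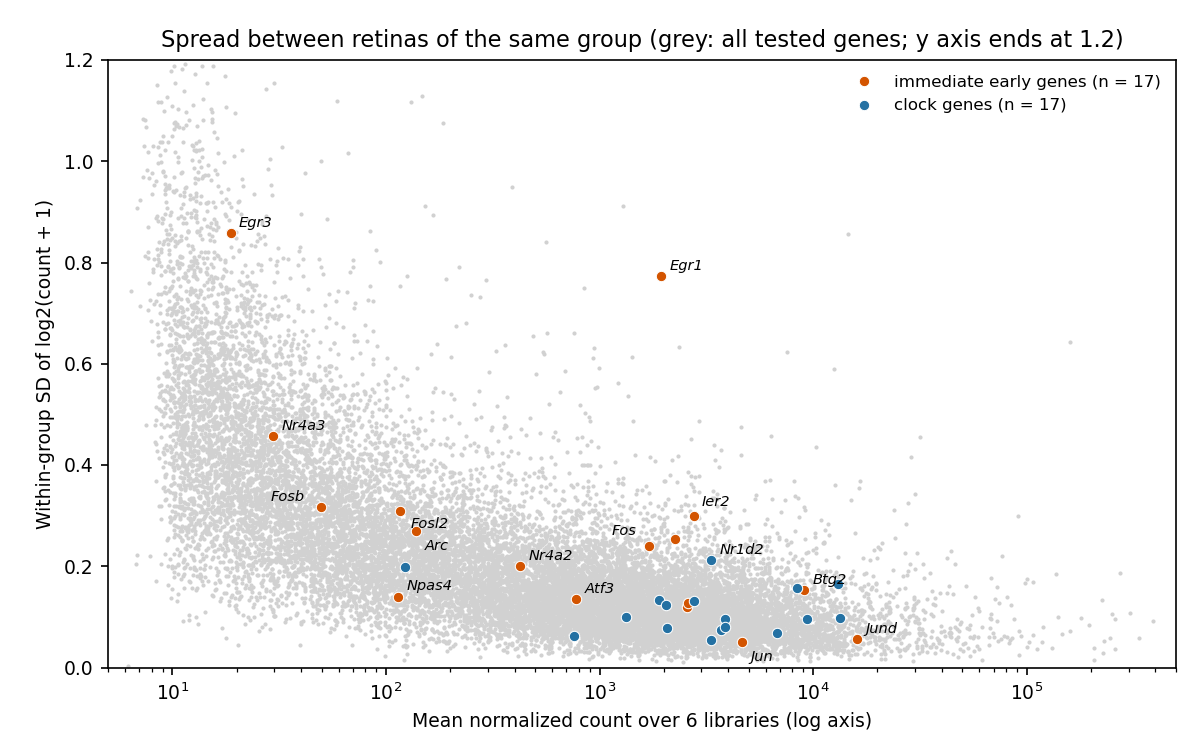
Standard deviation of log2(count + 1) within groups (3 libraries each, variances averaged over the 2 groups) against the mean normalized count (log axis) for all tested genes in grey, with immediate early genes in orange and clock genes in blue. Egr1, at 0.77, lies above nearly all genes of its level, while Jun and Jund lie among the least variable.

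The order of the libraries within each group was counted over the 17 tested immediate early genes, variable or not. Wild type 1 had the lowest wild-type value in 9 of the 17 tested (52.9%, against 35.2% of all tested genes): Fos, Junb, Egr1, Ier2, Nr4a1, Arc, Dusp1, Btg2 and Atf3. Samd7 KO 1 had the highest KO value in 10 of 17 (58.8%, against 35.04% of all tested genes). Of the 5 with the largest spread (Egr3, Egr1, Nr4a3, Fosb and Fosl2), Egr1 alone was lowest in wild type 1 and Fosb alone highest in KO 1. Members that respond to the same stimulus are not independent of one another, so these counts are a description of 2 libraries. For the clock genes, wild type 1 was highest of the wild types in 12 of 17 (70.6%, against 39.6%) and wild type 2 lowest in 11 of 17 (64.7%, against 37.8%). Leaving out wild type 1 gave 2 clock genes called lower, Ciart and Bhlhe41, against 4 with it; KO 3 and wild type 3 had the same effect on the count.

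A further list of 40 genes held other immediate early and activity genes and related factors, Maf among the latter. Of these, 36 were tested, 5 rose, 4 fell and 27 did not pass, with a median log2 fold change of -0.05. Whether the listed genes answered activity in these retinas was not tested. The share called was 25%, against 12% of all tested genes. This list and the next were drawn up with earlier results of these data known, so their shares called are only a description. The risers with the smallest adjusted p were Maf, a bZIP factor of lens and neurons (9.17-fold, 1946, 1322 and 1372 counts against 170, 143 and 193), Socs3, the feedback inhibitor of cytokine signalling (3.40-fold, 1396, 942 and 1160 against 326, 355 and 349), and Nab1, a corepressor that binds EGR proteins (1.79-fold, adjusted p = 5.85e-04 by limma). Nab1 rose, at 1581, 2014 and 1587 against 1006, 853 and 1034. Vgf, a secreted peptide precursor that follows neuronal activity, had 3261, 2805 and 3274 counts against 4661, 4700 and 4683 and was 1.504-fold lower (adjusted p = 4.68e-04 by limma). The others called, named with their values known, were Gadd45b and Trib1, which rose, and Cited2, Bdnf and Gadd45g, which fell; Bdnf, a neuronal growth factor that follows activity, had a log2 fold change of -0.52 (adjusted p = 0.0101 by limma). Of 18 ATF, CREB, ELK and MEF2 factors, their cofactor and MAP kinases, 2 rose and 2 fell. Some of the 18, but not all, carry signals to immediate early promoters. The share called was 22.2% of the 18, against 12% of all tested genes. Atf7 rose 1.47-fold and Elk3, a repressive ELK factor, 1.52-fold (adjusted p = 0.0211 by limma), while Elk4 was 1.70-fold lower and Atf4, the factor of the integrated stress response, 1.26-fold lower (adjusted p = 0.00671 by limma). The Elk3 call was lost when either of KO 2 and KO 3, or of wild type 2 and 3, was left out, and with the replicate block (adjusted p = 0.0506 by limma).

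Glucocorticoids also induce Per1, and their part in its level here was not tested. Other genes that respond to them were read from the same fit. Of 13 glucocorticoid-responsive genes, all tested, 5 fell and 0 rose by limma, and the same 5 and 0 by edgeR and by DESeq2. The share called was 38.5%, against 12% of all tested genes called and 5.21% called lower. The whole list was drawn up with earlier results of these data known, so this share is only a description. At an unadjusted p under 0.05, 8 were lower and 0 higher by limma, and the median log2 fold change was -0.18. Fkbp5, the chaperone that limits receptor sensitivity, had 2155, 3490 and 2392 counts against 4706, 4113 and 4101 and was 1.61-fold lower with no overlap (log2 fold change -0.71, adjusted p = 0.00783 by limma). Cdkn1a (p21) was 1.57-fold lower, Lcn2 1.86-fold lower and Sult1a1 1.48-fold lower, the last lost without KO 3, wild type 2 or wild type 3 and with the replicate block (adjusted p = 0.0508 by limma); without each of these 3 libraries, 3 genes of the list were called. Klf9, the fifth, was picked with its value known, at a log2 fold change of -0.22 (adjusted p = 0.0428 by limma). The receptor gene Nr3c1 and the metallothionein genes Mt1 and Mt2, also picked after their values were seen, did not pass, with log2 fold changes of 0.04, -0.02 and 0.05. The rest of the list, Tsc22d3, Sgk1, Zbtb16, Pdk4 and Errfi1, did not pass either, at -0.18, -0.15, -0.37, -0.03 and -0.13. The labels give no measure of stress or handling, and whether handling differed between the groups was not tested.

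**Figure D5:**
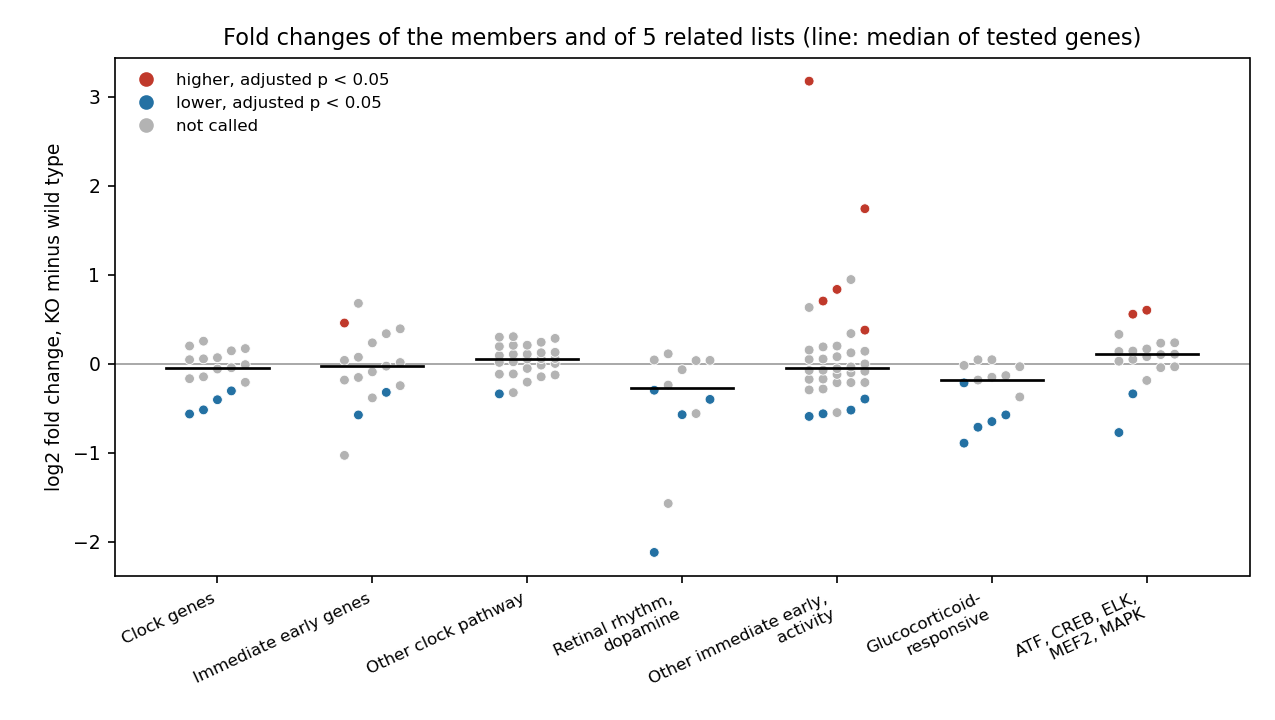
Log2 fold change (KO minus wild type) of every tested gene of the 2 groups of members and of the 5 related lists; red and blue points passed the test higher or lower, grey points did not, and lines are medians. The glucocorticoid-responsive and the retinal rhythm lists have medians of -0.18 and -0.27, and the clock and immediate early members of -0.04 and -0.03.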

How the data were processed

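The authors' deposited table gives, per the file headers and values, a signal per gene and library, each gene's reads over a size factor that is 1 number for the whole library. It also gives the authors' log2 fold change and adjusted p-value from DESeq2, per the file headers. Per the submitters' processing notes, tools included cutadapt 3.0, STAR 2.7.3a, HTSeq 0.12.4, SAMtools 1.9, DRAGEN and DESeq2, and the builds GRCm38 and mm10 appear; the sources used here do not state what each was used for or whether counting used strand. Dividing each library by the worth of 1 read gave whole reads, within 0.01 reads, for 100% of 166478 values above 0. No molecular identifiers are described for the low-input cDNA kit, which used PCR.

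The members, gene lists and tests were chosen with earlier results of these data known. Because the values are normalized, the test was limma-trend 3.58.1 (R 4.3.3) on log2(value + 1), which understates changes of low genes, keeping genes that reached 10 in 3 or more libraries. P-values are two-sided and adjusted over all 20277 tested genes. Folds are ratios of group means. Alternatives were edgeR 4.0.16 (TMM) and DESeq2 1.42.0 on the recovered reads, which call 2494 and 2883 genes, a pseudocount of 10, no filter, total-read scaling, the replicate number as a block, and each library omitted in turn; scripts were tested on simulated data. All members are named, and of each other list up to 4 called genes with the smallest adjusted p. The symbols Skp1a, Cyr61 and Ctgf were matched through RefSeq synonyms; gene positions and promoters are RefSeq's, GRCm38.p6, and exon lengths GENCODE M21's.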

Additional observations from a re-analysis of the deposited data

How the results depend on the processing

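Of 34 members tested, Ciart, Bhlhe41, Jun and Atf3 were called in all 12 alternatives, and 23 were called in no setting. The 4 clock genes called became 2 with the replicate number as a block and 2 to 5 with single libraries left out, 2 without KO 3, wild type 1 or wild type 3. The 3 immediate early genes became 5 with DESeq2 and 2 to 4 without single libraries. The 5 glucocorticoid-responsive genes called became 3 with the replicate block and 3 to 6 without single libraries (3 without KO 3, wild type 2 or wild type 3). The 1 gene of the other clock-pathway list became 4 without KO 1 and 0 without KO 3 or any wild-type library. For all genes, 2432 called became 1624 with the block and 1313 (without wild type 3) to 3247 (without KO 1), with 1497 without KO 3 and 1470 without wild type 2. The labels do not say that replicate numbers pair the libraries. Deviations of same-numbered libraries from their group means correlated at -0.18, -0.13 and -0.01 over tested genes. With 3 libraries a group such deviations constrain one another, so these values cannot decide whether libraries shared a litter, day or batch. Signs of uncalled members turned with total-read scaling for Clock (0.0123), Bhlhe40 (0.0470) and Arc (0.0300), and for Egr1 with edgeR (-0.13) and DESeq2 (-0.13). With single libraries left out, log2 fold changes ran from -0.0209 to 0.148 for Cry2, -0.143 to 0.00788 for Clock, -0.109 to 0.0166 for Dbp, -0.00103 to 0.0836 for Hlf, -0.0494 to 0.0196 for Bhlhe40, -0.0839 to 0.180 for Junb, -0.47 to 0.50 for Egr1, -0.11 to 0.85 for Egr3, -0.156 to 0.145 for Arc and -0.163 to 0.00541 for Btg2. The cause of these shifts was not tested. Counting error weighs most on the members with the fewest reads, among them Egr2, Egr3, Nr4a3 and Fosb; its share in their spread was not tested.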
